A study of Homo sapiens with 4 samples.

Results

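The comparison is between KYSE30 and TE-1, established human cell lines that the study uses as esophageal squamous cell carcinoma (ESCC) cells, over both treatments of the experiment. Its members are all 4 libraries of the series, 2 of each line. Each line has 1 library after 24 h of l-lactate at 20 mM and 1 after PBS. The libraries are PAS-seq, which reads the 3′ ends of polyadenylated RNA, and 17627 poly(A) site clusters (PACs) were joined across them by their cluster number. Nothing in the labels says whether the libraries came from separate cultures, and each line stands for itself alone, so the line cannot be told apart from its culture or library preparation.

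The cell line field of the PBS samples reads KYSE32 and TE-3, against their titles and the study's methods, and the titles are followed. Each PBS library was closest to the l-lactate library of the same title, which does not show which line they are. Over the 9942 genes tested, the rank correlation of TPM was 0.99 within KYSE30 and 0.991 within TE-1, against 0.706 to 0.715 across the lines (Spearman), given as a description over genes that share their libraries. The libraries held 7174991 to 10393799 tags, and the TPM used here is the tags of a PAC scaled to the total tags of its library, with no correction for length. The lowest listed values were 8 to 11 tags. Not listed means only that the table of a library does not hold the gene or PAC: the study also dropped clusters on other grounds, and genes used by most cells, such as PGAM1 and PLEC, were listed in no library, so it is not a measured level. The libraries titled TE-1 listed neither TP63 nor SOX2, their identity was not checked against an outside profile, and TE-1 stands here for the libraries with that title.

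Squamous epithelium is built from keratin-filled cells that hold to each other by desmosomes and adherens junctions and to the basement membrane by hemidesmosomes, under transcription factors such as TP63 and SOX2. Carcinoma cells can keep this program or lose parts of it and gain mesenchymal genes such as vimentin. Most human genes also have more than 1 poly(A) site, so lines may differ in where transcripts end as well as in how many there are.

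Most junction and cornified envelope genes tested were higher in KYSE30. KYSE30 had TP63, SOX2, the stratified keratins KRT13 and KRT15, E-cadherin and the cornified envelope protein SPRR3. TE-1 listed none of them apart from E-cadherin, at TPM of 1.30 in its l-lactate library. On the same lists KRT17, TRIM29 and PITX1 were higher in TE-1. TE-1 also had vimentin and ZEB1, and with them HNF4A, FOLR1 and CPS1, while the columnar markers AGR2, GATA4 and FOXA2 were higher in KYSE30. The mesenchymal list was mixed, with 10 genes higher in KYSE30 and 8 higher in TE-1.

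A gene's level was the sum of TPM over its PACs, compared as log2(TPM + 1) with limma, the treatment kept as a block. It was called where the adjusted p was at most 0.05 and the difference was 1 or more in the same direction in both treatments. Of 9942 genes tested, 1665 (16.7%) were higher in KYSE30 and 1512 (15.2%) were higher in TE-1. The counts of each gene list below are to be read beside these 2 shares. Genes tested that only 1 line listed numbered 488 for KYSE30 and 442 for TE-1. They passed the filter through that line alone, and the other line counted as 0, so their direction was fixed by the listing. No gene differed by 1 or more in opposite directions in the 2 treatments, and 372 reached 1 in l-lactate only and 513 in PBS only. The median absolute line difference was 0.680 in l-lactate and 0.701 in PBS, against a median absolute l-lactate difference of 0.127 in KYSE30 and 0.131 in TE-1. For the treatment itself the same limma fit found 0 genes with an adjusted p of at most 0.05 and 968 with an unadjusted p under 0.05. The fit has 1 residual degree of freedom per gene and 8.01 prior degrees of freedom. The SE of a gene therefore rests mostly on a value shared with genes of similar level, and less on the gene itself. What it reflects is how far line differences moved between treatments, not the spread of replicates.

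**Figure D1:**
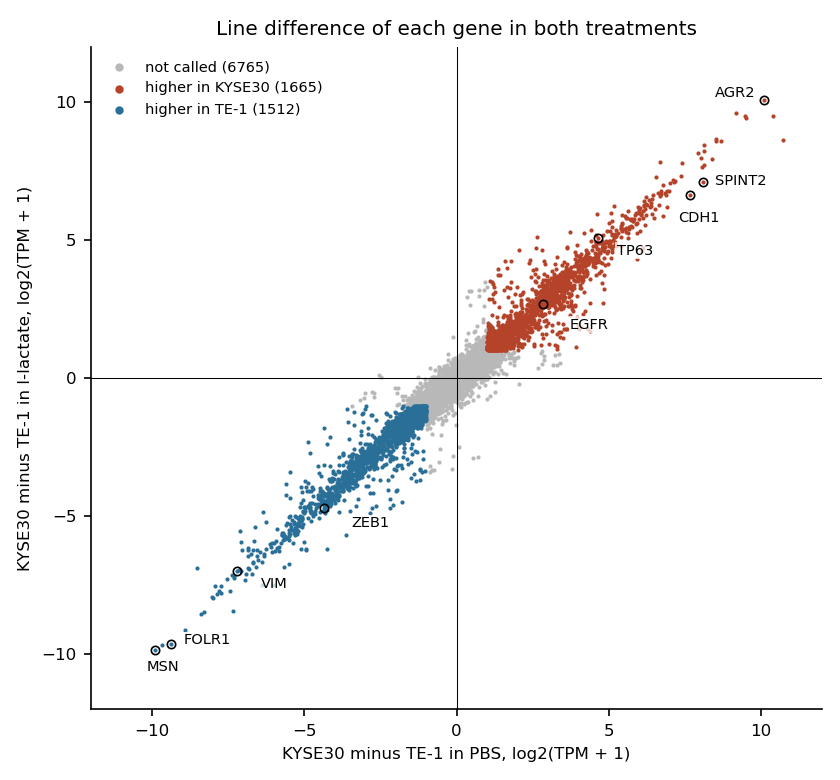
Each point is a gene tested, with its KYSE30 minus TE-1 difference in log2(TPM + 1) in PBS on the x axis and in l-lactate on the y axis. Red points were called higher in KYSE30 (1665), blue points higher in TE-1 (1512) and grey points were not called. The points lie along the diagonal, and circles mark 9 genes described in the text.

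The largest differences were ranked among called genes listed in all 4 libraries. In each pair below the l-lactate library comes first and the PBS library second. ARHGDIB, an inhibitor of small GTPase cycling, had TPM of 761 and 908 in KYSE30 and 2.125 and 1.73 in TE-1, a log2 difference of 8.15 (SE 0.125, adjusted p = 2.57e-10). SPINT2, an inhibitor of membrane serine proteases, had TPM of 1494 and 1529 in KYSE30 and 9.92 and 4.62 in TE-1, and CDH3, P-cadherin, had 336 and 288 in KYSE30 and 1.53 and 1.25 in TE-1. The ranking itself picks genes in which the lines lie far apart in both treatments. Further genes of this ranking were HMGA2, ABCC2, LSR, TSPAN1, SNCG, FXYD3, GTSF1 and CGN, with fitted folds between 30.6 (CGN, cingulin of tight junctions) and 81.7 (HMGA2, an architectural chromatin protein).

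Other genes were listed in both libraries of KYSE30 and in neither of TE-1. AGR2, a disulfide isomerase of secretory cells, had TPM of 1088 and 1093 in KYSE30. MAGEA4, a cancer testis antigen, had 720 and 711. KRT13, a keratin of stratified mucosa, had 684 and 728. By the lower of their KYSE30 values these were the highest of the 488 genes tested that KYSE30 alone listed. The lncRNA UCA1 had TPM of 773 and 571, and CTAG2, RAB25, LRATD2 and PADI3 ranged from 280 (PADI3 in PBS) to 409 (CTAG2 in PBS).

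In TE-1, by the same ranking, FOLR1, the folate receptor, had TPM of 2035 and 1648 in TE-1 and 1.53 and 1.48 in KYSE30, a log2 difference of -9.51 (SE 0.10, adjusted p = 7.74e-11). VIM, the intermediate filament of mesenchymal cells, had 982 and 991 in TE-1 and 6.69 and 5.66 in KYSE30, a log2 difference of -7.11 (SE 0.0909, adjusted p = 1.12e-10). CRIP1, a small LIM protein, had 484 and 474 in TE-1 and 5.44 and 3.10 in KYSE30. That both TE-1 values of each gene lay well above both KYSE30 values follows from the ranking. Further genes of this ranking were TPM2, SLPI, UCP2, IFITM2, VWA5A, CDKN1C, BACE2, AATK and ALPP, with TE-1 levels between 79.1 (ALPP in PBS) and 293 (TPM2 in PBS). IFITM2 and ALPP have near-identical copies, which makes their own share of the tags uncertain.

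Among the 442 genes tested that only TE-1 listed, the highest was MSN, moesin, which ties actin to the membrane, with TPM of 928 and 948. CPS1, the first enzyme of the urea cycle, had 813 and 807, and C4BPB, a subunit of the complement regulator C4BP, had 563 and 483. CPS1 and C4BPB are best known from liver. MUC13, SLC43A3, CASC19, PXDN and COL5A1 ranged from 224 (COL5A1 in l-lactate) to 373 (MUC13 in l-lactate).

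Genes on the squamous transcription factor list were split, 8 of 15 tested (53.3%) higher in KYSE30 and 2 (13.3%) in TE-1. Over all genes these shares were 16.7 and 15.2%. SOX2 had TPM of 220 and 168 in KYSE30 and TP63 had 32.6 and 24.2, and neither was listed in TE-1. EHF had 38.9 and 29.6 and OVOL1 16.6 and 17.9 in KYSE30, again with no listing in TE-1. ELF3, GRHL1 and OVOL2 were higher in KYSE30 but listed in both lines. OVOL2 differed by 1.01 in PBS, and by 0.98 under TMM and median-ratio scaling, where its call was lost and the list had 7 genes higher in KYSE30. TRIM29, a tripartite motif protein counted on this list, went the other way, with 72.9 and 62.1 in TE-1 and 12.8 and 9.43 in KYSE30. So did PITX1, with 60.9 and 56.1 in TE-1 and 2.93 and 4.44 in KYSE30. KLF4 and KLF5 were not called, with log2 differences of -0.30 and -0.40.

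The keratins separated the lines further. Of 7 stratified keratins tested 4 were higher in KYSE30 and 1 in TE-1. KRT15 had TPM of 93.5 and 73.4 in KYSE30, KRT6A 40.4 and 20.3 and KRT4 15.6 and 14.4, and like KRT13 they were not listed in TE-1. KRT17, a keratin of basal and activated epithelium, was listed in TE-1 alone, with 187 and 245. KRT5 and KRT14, the basal pair of squamous epithelium, were not listed in any library, so the labelled cell type could not be checked on them. Of 6 keratins tested on the simple epithelial list 4 were higher in KYSE30 and 0 in TE-1. That list also holds KRT86, a hair keratin and 1 of the 4. It had 7.11 and 8.89 in KYSE30 and 2.60 in the l-lactate library of TE-1 alone. KRT19 had 1574 and 1699 in KYSE30 and 2.95 in the l-lactate library of TE-1, with no listing in its PBS library. KRT8 was abundant in both lines, with 2229 and 2154 in KYSE30 and 969 and 1004 in TE-1, a log2 difference of 1.15 (SE 0.0618, adjusted p = 1.91e-07). KRT7 was not called, with a log2 difference of -0.65.

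Genes of squamous differentiation and the cornified envelope were higher in KYSE30 in 10 of 12 tested, and none was higher in TE-1. Of the 10, 7 were listed in KYSE30 alone, so their calls rest on a TE-1 level counted as 0. SPRR3 had TPM of 283 and 242, KLK6, a kallikrein protease, 199 and 264, SERPINB5 70.5 and 64.2 and IVL, involucrin, 53.0 and 61.9 in KYSE30, and TE-1 listed none of the 4. EMP1 had 226 and 241 in KYSE30 and 22.4 and 13.6 in TE-1. SFN, the 14-3-3 protein of epithelial cells, was not called, with 301 and 313 in KYSE30 and 205 and 229 in TE-1. Of the 30 genes of this list, 17 were not listed anywhere.

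**Figure D2:**
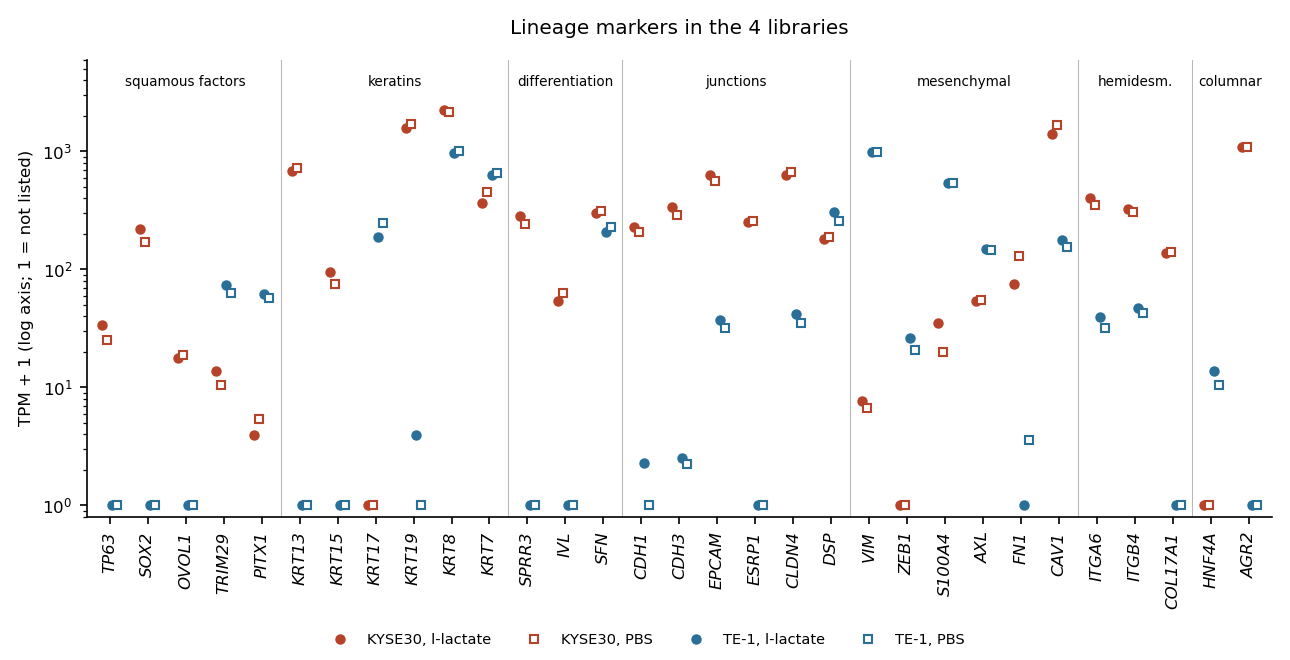
TPM + 1 on a log axis for lineage markers in the 4 libraries, with filled circles for l-lactate, open squares for PBS, red for KYSE30 and blue for TE-1; a point at 1 is a gene that the library did not list. The points of a line stay together within each gene, while TP63, SOX2, KRT13 and ESRP1 sit at 1 in TE-1 and KRT17, ZEB1 and HNF4A sit at 1 in KYSE30.

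Epithelial junction genes were higher in KYSE30 in 17 of 21 tested and in TE-1 in 0. CDH1, E-cadherin, had TPM of 228 and 204 in KYSE30 and 1.30 in the l-lactate library of TE-1, with no listing in its PBS library. EPCAM had 635 and 563 in KYSE30 and 36.4 and 30.7 in TE-1, a log2 difference of 4.12 (SE 0.0728, adjusted p = 4.56e-10). ESRP1, a splicing factor of epithelial cells, had 251 and 257 in KYSE30 and was not listed in TE-1. The tight junction claudin CLDN4 had 624 and 665 in KYSE30 and 40.6 and 34.0 in TE-1. Of these 4 genes EPCAM and CLDN4 were listed in all libraries. DSP, desmoplakin, was not called, with 180 and 187 in KYSE30 and 306 and 257 in TE-1, and JUP, PKP3 and ESRP2 were not called either.

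The genes that tie cells to the basement membrane went the same way in 11 of 20 tested, with 2 higher in TE-1. ITGA6 had TPM of 401 and 347 in KYSE30 and 38.5 and 31.1 in TE-1, and its partner ITGB4 had 322 and 305 against 45.8 and 41.3. COL17A1, a collagen of hemidesmosomes, had 136 and 140 in KYSE30, with no listing in TE-1. The integrin beta chains ITGB1 and ITGB5 were not called, with log2 differences of -0.95 and -0.68. ITGA5, the fibronectin receptor chain, was higher in TE-1, with 54.8 and 53.3 against 12.3 and 13.7, and so was COL7A1, the anchoring fibril collagen, with 93.9 and 91.5 against 3.90 and 3.37.

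The mesenchymal list did not move one way. Of 20 genes tested 10 were higher in KYSE30 and 8 in TE-1, with a median log2 difference of 0.78. Beside VIM, TE-1 had ZEB1, a repressor of epithelial genes, at TPM of 25.0 and 19.6 with no listing in KYSE30, and S100A4 at 540 and 536 against 34.0 and 19.0. AXL, a receptor tyrosine kinase, had 149 and 144 in TE-1 and 53.2 and 53.6 in KYSE30. In the other direction FN1, fibronectin, had 74.1 and 128 in KYSE30 and 2.60 in the PBS library of TE-1 alone. CAV1, caveolin-1, had 1394 and 1680 in KYSE30 and 175 and 152 in TE-1, and TGFBI, MMP14, MMP2 and SPARC were listed in KYSE30 alone. The genes higher in KYSE30 include matrix proteins and matrix proteases, and those higher in TE-1 include the filament VIM and the factor ZEB1.

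Few markers of other cell types were listed. Of 16 fibroblast, endothelial and immune markers 11 were not listed in any library, PTPRC, CD3E, PECAM1 and VWF among them, and of the 2 tested 1 was higher in KYSE30. COL1A1, DCN and PDGFRB were listed in TE-1 alone with TPM between 3.66 and 7.12, and CDH5 in KYSE30 alone with 11.2 and 16.2. Their part in the mesenchymal differences was not tested. Of 19 columnar and intestinal markers 13 were not listed, including CDX2, TFF1, TFF3, VIL1 and CDH17. Of 6 tested 3 were higher in KYSE30 (AGR2, GATA4 and FOXA2) and 2 in TE-1. HNF4A had 12.9 and 9.43 in TE-1, with no listing in KYSE30. GATA4 and FOXA2 lay between 6.20 and 8.78 in KYSE30 and were not listed in TE-1, so the columnar factors present differed between the lines.

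Growth factor receptors and their ligands were higher in KYSE30 in 9 of 21 tested and in TE-1 in 5. EGFR had TPM of 906 and 901 in KYSE30 and 140 and 126 in TE-1, a log2 difference of 2.76 (SE 0.0665, adjusted p = 2.10e-09). Its ligands TGFA (41.8 and 49.7), AREG (35.5 and 27.2) and EREG (19.9 and 8.89) were listed in KYSE30 alone. The ligand HBEGF was too low to be tested, with 3.21 in the l-lactate library of KYSE30, no listing in its PBS library, and 4.37 and 5.195 in TE-1. ERBB3 had 63.4 and 96.3 in KYSE30 against 10.98 and 5.87. TE-1 had more FGFR1, PDGFA, VEGFA, IGFBP4 and IGFBP7, of which IGFBP4, a binding protein for insulin-like growth factors, had 179 and 159 against a single listing of 1.48 in KYSE30. MET and ERBB2 were not called, with log2 differences of -0.62 and 0.76.

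Among genes that control entry into S phase, 2 of 15 tested (13.3%) were higher in KYSE30 and 5 (33.3%) in TE-1. Over all genes tested these shares were 16.7 and 15.2%. The cyclin CCND2 was listed in TE-1 alone, with TPM of 30.9 and 34.0, and CCND3 had 37.9 and 36.5 in TE-1 and 4.18 and 5.66 in KYSE30. CDKN2A, which encodes p16, had 57.6 and 53.9 in TE-1 and 11.2 and 13.7 in KYSE30, and CDKN2C and CCNE1 were higher in TE-1 too. CDKN1A, which encodes p21, had 58.0 and 70.3 in KYSE30 and 13.7 and 19.7 in TE-1, and CDKN2B was higher in KYSE30. CDKN2A and CDKN2B, which lie side by side, therefore differed in opposite directions. The level of CDKN2A is a sum over its PACs, and its products were not told apart. CCND1 was not called, with 124 and 117 in KYSE30 and 106 and 94.7 in TE-1.

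CCND1 lies in the 11q13 region, which is often amplified in this cancer. On a list of amplicon genes chosen there, 5 of 7 tested were higher in KYSE30 and 0 in TE-1. That list does not stand for all genes around it. In chr11:65000001-70000000, 11 of 98 genes tested were higher in KYSE30 and 16 in TE-1. In chr11:70000001-75000000, 11 of 35 were higher in KYSE30 and 8 in TE-1, FOLR1 and UCP2 among the 8. CTTN, cortactin of the actin cortex, had TPM of 1423 and 1509 in KYSE30 and 282 and 262 in TE-1, a log2 difference of 2.43 (SE 0.068, adjusted p = 4.84e-09). PPFIA1 had 123 and 124 against 22.4 and 19.1, FADD 117 and 104 against 25.9 and 21.6, and ANO1, a chloride channel, 59.5 and 65.7 in KYSE30 alone. CCND1 itself differed by 0.27 between lines, so the genes of the list did not share a difference. Copy number was not measured here.

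Interferon response and antigen presentation genes were higher in TE-1 in 11 of 28 tested (39.3%) and in KYSE30 in 5 (17.9%). Over all genes tested 15.2% were higher in TE-1 and 16.7% in KYSE30. B2M, the light chain of HLA class I, had TPM of 1238 and 972 in TE-1 and 274 and 294 in KYSE30. PSMB8, of the immunoproteasome, had 157 and 122 in TE-1 with no listing in KYSE30. TAP1 and TAP2, which carry peptides into the endoplasmic reticulum, had 116 and 107 and 64.4 and 51.5 in TE-1, against 13.2 and 14.8 and 16.3 and 12.8 in KYSE30. NLRC5, the activator of class I genes, had 36.8 and 36.4 in TE-1 and 4.18 and 4.85 in KYSE30. Other genes of peptide supply were not called, with log2 differences of -1.42 (PSMB9), 0.11 (PSMB10) and 0.50 (TAPBP). HLA-B was higher in TE-1 and HLA-C in KYSE30, but these genes are near-identical and differ between people, and tags may have moved between them. IRF1 and IRF9, which carry the interferon signal, were higher in KYSE30, with IRF1 at 19.4 and 28.7 against 6.02 and 5.77.

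Genes of redox and energy metabolism were called in either direction in 31.8% (NRF2 targets), 14.3% (glycolysis and lactate handling) and 23.1% (lipoylation and cuproptosis) of those tested, against 32.0% of all genes. Of 22 NRF2 targets tested 2 were higher in KYSE30 and 5 in TE-1, and NQO1, a defining target, had TPM of 394 and 423 in KYSE30 and 399 and 412 in TE-1. AKR1B1, an aldose reductase, had 349 and 339 in TE-1 and a single listing of 1.08 in KYSE30, and ABCC2, a drug exporter, had 242 and 226 in KYSE30 and 3.19 and 1.06 in TE-1. Of 21 genes of glycolysis and lactate handling 0 were higher in KYSE30 and 3 in TE-1, namely ENO2, ALDOC and SLC2A3. LDHA, which makes lactate from pyruvate, had 2119 and 1739 in KYSE30 and 3641 and 3532 in TE-1, a log2 difference of -0.90 (SE 0.073, adjusted p = 2.86e-06) that reached 1 in PBS only. Of 13 lipoylation and cuproptosis genes 0 were higher in KYSE30 and 3 in TE-1: PDHA1, DLAT and CDKN2A. PDHA1, the pyruvate dehydrogenase subunit encoded on the X chromosome, had 398 and 403 in TE-1 and 101 and 95.6 in KYSE30. FDX1, a ferredoxin needed for protein lipoylation, was not called, with 37.6 and 29.5 in KYSE30 and 39.8 and 36.8 in TE-1 (log2 difference -0.19, SE 0.12, adjusted p = 0.171).

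Among 27 genes of 3′ end processing and lactylation tested, 0 were called in either direction. NUDT21, the small subunit of cleavage factor Im, had TPM of 90.7 and 87.5 in KYSE30 and 96.8 and 100.3 in TE-1, and CPSF6, its large partner, had 178 and 140 against 283 and 168. AARS1, which the study treats as a lactyltransferase, had 166 and 160 against 189 and 178, and HDAC2, a deacetylase, had 119 and 104 against 128 and 103. The log2 differences of the 4 genes lay between -0.46 (CPSF6, SE 0.0968, adjusted p = 0.00189) and -0.04 (HDAC2, SE 0.0782, adjusted p = 0.660). CPSF6 differed by 0.67 in l-lactate and 0.25 in PBS, both lower in KYSE30.

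**Figure D3:**
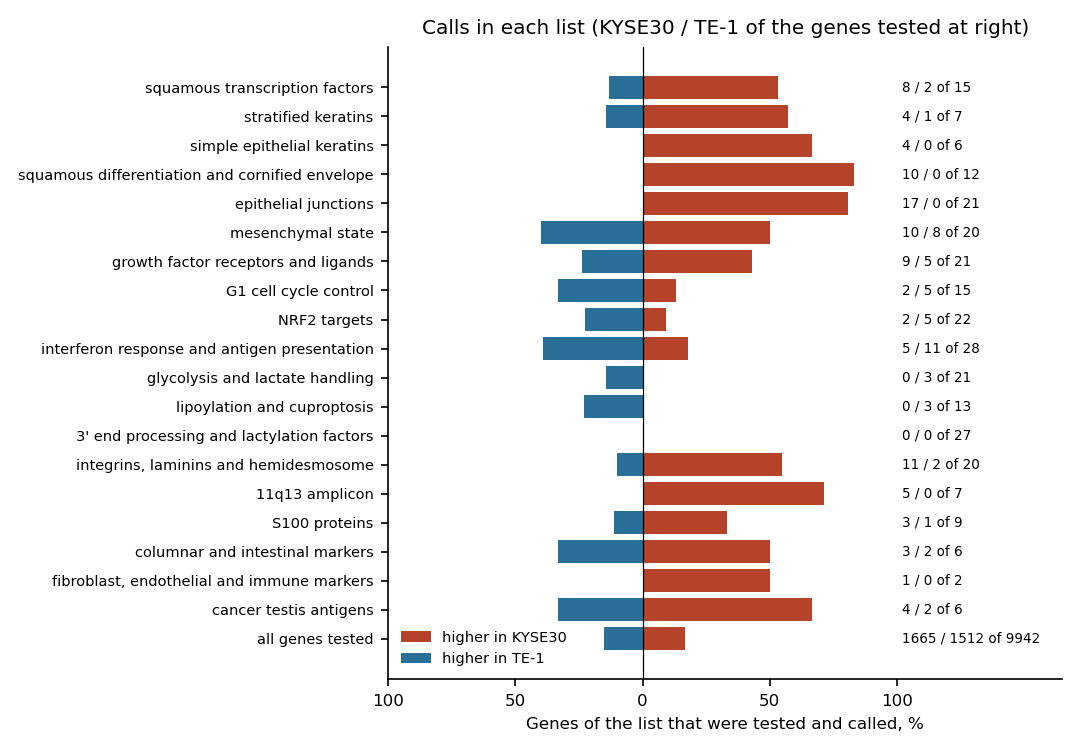
Percent of the genes tested in each list that were called higher in KYSE30 (red, to the right) and in TE-1 (blue, to the left), with the counts beside each bar and all genes tested at the bottom. Junction, cornified envelope and hemidesmosome lists lie mainly to the right, and interferon and antigen presentation genes mainly to the left.

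S100 proteins and cancer testis antigens also differed by member. Of 9 S100 genes tested 3 were higher in KYSE30 and 1 in TE-1. S100A2, a p63 target of squamous cells, had TPM of 690 and 533 in KYSE30 and 58.9 and 51.7 in TE-1, and S100A14 and S100A11 were higher in KYSE30, while S100A4 was higher in TE-1. Of 6 cancer testis antigens tested 4 were higher in KYSE30 and 2 in TE-1. MAGEA1, with 151 and 157, and PRAME, with 56.9 and 51.1, were listed in TE-1 alone. MAGEA4, CTAG2, MAGEB2 and SAGE1 were listed in KYSE30 alone, so no antigen tested was listed in both lines. Genes of these families have close copies, and tags shared between copies may have been placed on either.

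The line difference was not even along the genome. Of 362 windows of 5 Mb that held at least 10 genes tested, the median line difference was above 0.5 in both treatments in 49 and below -0.5 in both treatments in 57, and in none did it pass 0.5 in opposite directions. The highest medians were in neighbouring windows of the long arm of chromosome 3. In chr3:185000001-190000000 the median was 1.90, with 12 of 16 genes higher in KYSE30, TP63, ETV5, IGF2BP2, EIF4A2 and BCL6 among them. In chr3:190000001-195000000 it was 1.80, with 9 of 14 higher in KYSE30, including CLDN1, HES1 and IL1RAP, and 1 (P3H2) higher in TE-1. Chromosome 3 as a whole had a median of -0.26, with 8 of its 25 windows below -0.5 and 4 above 0.5. The third window was chr4:180000001-185000000, with a median of 1.62 and 6 of 11 genes higher in KYSE30: ACSL1, CENPU, DCTD, IRF2, PRIMPOL and TRAPPC11.

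The lowest medians were on the X chromosome, which had the lowest median of the chromosomes compared, -0.91 over 304 genes, with 28 higher in KYSE30 and 136 in TE-1. In chrX:15000001-20000000 the median was -2.16, with 15 of 16 genes higher in TE-1, among them PDHA1, RBBP7, PIGA and AP1S2. In chrX:50000001-55000000 it was -2.12, with 11 of 14 higher in TE-1, including SMC1A, KDM5C and HSD17B10. In chrX:20000001-25000000 it was -1.87, with 8 of 11 higher in TE-1, including EIF2S3, EIF1AX and POLA1, and 2 (SAT1 and SMS) higher in KYSE30. The 3 windows were picked by their medians, so their counts of genes higher in TE-1 follow in part from that choice. Of the 12 windows on X 7 were below -0.5 and 0 above 0.5, and their medians ran from -2.16 to 0.17. Chromosomes 21 and 11 had medians of -0.61 and -0.47, and chromosome 18 had the highest, 0.43.

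**Figure D4:**
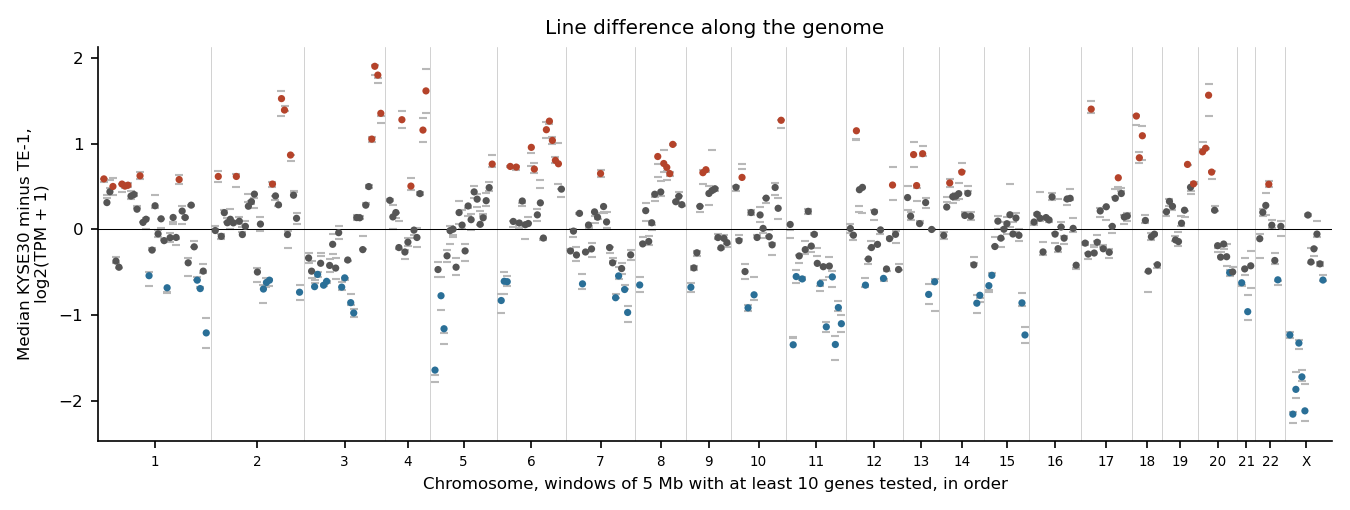
Median KYSE30 minus TE-1 difference in log2(TPM + 1) of the genes in each 5 Mb window, in order along the chromosomes; dashes give the medians in l-lactate and in PBS, and dots the median over both, red above 0.5 and blue below -0.5. The red windows at the end of chromosome 3 reach 1.90 and the blue windows of the X chromosome reach -2.16.

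Where transcripts ended was compared next. Distal usage was the share of a gene's 3′ UTR TPM in its most distal PAC, tested as a log ratio of distal to other PACs with limma and called from an adjusted p of at most 0.05 and 10 percentage points or more in both treatments. Of 1760 genes with 2 or more such PACs, 249 (14.1%) had higher distal usage in KYSE30 and 80 (4.55%) had higher distal usage in TE-1. KYSE30 thus took 75.7% of the calls (Wilson 95% interval 70.8 to 80.0, over genes, which are not independent). The median difference over all 1760 genes was 1.89 percentage points in l-lactate and 2.89 in PBS, and the median distal share was 48.3 and 49.9% in KYSE30 and 45.0 and 44.3% in TE-1. In 4 genes the lines differed by 10 points in opposite directions in the 2 treatments, against 332 in the same direction. In the fits without 1 library, given next, the 10 points were asked for only in the treatment that kept both lines. The calls rest on all 4 libraries: without 1 library, and so without the block, 81 (without TE-1 replicate 2, PBS), 93 (without TE-1 replicate 1, l-lactate), 141 (without KYSE30 replicate 2, PBS) or 171 (without KYSE30 replicate 1) were higher in KYSE30, and 40, 37, 52 or 59 in TE-1.

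Distal usage was set beside level for the same genes. Of the 249 genes with higher distal usage in KYSE30, 19 had a higher level in KYSE30 and 29 in TE-1, and of the 80 with higher distal usage in TE-1, 15 had a higher level in KYSE30 and 10 in TE-1. Over the 1760 genes 9.55% had a higher level in KYSE30 and 9.20% in TE-1. The distal PAC lay in the same 3′ UTR exon as the main other PAC in 190 of the 249 and 59 of the 80 genes, and a median of 2535 and 2310 nt away. These are 76.3 and 73.8%, against 84.7% of all 1760 genes.

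Among the genes with the largest differences towards KYSE30, DNAJB6, a co-chaperone with a long nuclear and a short cytosolic isoform, had distal shares of 55.6 and 66.2% in KYSE30 and 11.7 and 20.4% in TE-1 (adjusted p = 0.00109). Its sites lie 31110 nt apart, at chr7:157417434 and chr7:157386324 (GRCh38), where annotated transcripts DNAJB6-201 and DNAJB6-204 end. Its level did not differ, at a log2 difference of 0.00. MEF2D, a transcription factor, had distal shares of 59.1 and 62.4% in KYSE30 against 30.1 and 29.4% in TE-1. SPECC1, MAP3K20, NIPBL, TROAP and RNASEH1 were also in this ranking, with mean differences between 30.1 (MAP3K20) and 35.3 points (SPECC1). The calls of MAP3K20 and RNASEH1 were lost without TE-1 replicate 2 (log2 ratio differences of 1.59 and 1.57 there) and that of NIPBL without TE-1 replicate 1 (1.64).

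The next genes had higher distal usage in TE-1. DST encodes plakins that anchor filaments, the short epithelial form in hemidesmosomes and longer forms elsewhere, and its level was higher in KYSE30, with 422 and 412 TPM against 37.9 and 32.2. Its distal share was 11.3 and 14.9% in KYSE30 and 57.0 and 57.0% in TE-1 (adjusted p = 0.00109). The main other site, at chr6:56614598, is the end of DST-205, and the distal site, at chr6:56458238 on the reverse strand and 156360 nt away, is the end of DST-203. The PAC at the near end had TPM of 291 and 268 in KYSE30 and 5.08 and 4.81 in TE-1, and the PAC at the distal end 40.7 and 51.6 in KYSE30 and 21.6 and 18.4 in TE-1. KYSE30 therefore held mostly the form with the near end, and the lines differed far less at the distal end. KPNB1, importin beta, had distal shares of 16.7 and 12.2% in KYSE30 and 54.1 and 59.5% in TE-1, and ARMC10, FOXK2, UROS, PNKD and BORA had mean differences between 35.6 (UROS) and 39.3 points (ARMC10). The distal share of UROS was 100% in both TE-1 libraries, and that of BORA was 0% in both KYSE30 libraries. In each case a PAC that was not listed counted as 0, which is not a measured absence, so the sizes of these 2 differences are uncertain. MRPL43, of the mitochondrial ribosome, had 5.73 and 6.08% against 52.9 and 55.1%, but its direction depended on which PACs were counted. With PACs above a TPM of 1 in place of 5, another PAC was the most distal and the log2 ratio difference was 0.0464.

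Of the genes on the lists, NUDT21, IGF1R and RBBP6 had higher distal usage in KYSE30, and DST and DSG2 in TE-1. NUDT21 and RBBP6 were 2 of 12 genes compared on the 3′ end processing list. IGF1R was 1 of 3 on the growth factor list, DST 1 of 3 on the basement membrane list and DSG2 1 of 2 on the junction list. On the other lists no gene was called, and over all 1760 genes 18.7% were called. NUDT21 encodes a factor that selects poly(A) sites, and its own distal share was 44.5 and 39.8% in KYSE30 and 32.0 and 22.4% in TE-1 (adjusted p = 0.0205), between sites 3484 nt apart. IGF1R, the insulin-like growth factor receptor, had 78.7 and 81.1% in KYSE30 and 55.1 and 59.3% in TE-1 (adjusted p = 0.00398), with sites 5833 nt apart. RBBP6, a subunit of the cleavage complex, had 71.9 and 73.1% in KYSE30 and 61.5 and 60.5% in TE-1. DSG2, a desmosomal cadherin, had 89.3 and 85.7% in KYSE30. In both TE-1 libraries its other PAC was not listed and counted as 0, which is not a measured absence. The gene had TPM of only 18.8 and 14.8 there. NUDT21, IGF1R and RBBP6 were not called in level, and DSG2 was higher in KYSE30. CPSF6 was not called in distal usage, with 18.4 and 27.2% in KYSE30 and 10.1 and 20.3% in TE-1, where the treatments of a line were as far apart as the lines.

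The 30 bases up to and including the cleavage site, read from the GRCh38 genome on the strand of the gene, are shown for NUDT21, DST and IGF1R because these genes differ in distal usage and are tied to poly(A) site choice, hemidesmosomes and growth signals. Capitals mark AATAAA or ATTAAA, the main poly(A) signals.
NUDT21 distal: tttattgtcatttcAATAAAaaatatttga
NUDT21 other: cagtgtagAATAAAtgtggtagaaaagttt
DST distal: ctatgaAATAAAacacgtcccttaactgca
DST other: ggttaagtgaatgAATAAAatgttttagta
IGF1R distal: tttaagttaAATAAAataattctgtatgca
IGF1R other: acggttcagatattcatctatacgtctgta
Both sites of NUDT21 and DST carry AATAAA, whereas the nearer site of IGF1R had neither hexamer in these bases and was followed in the genome by a run of 6 A within 10 nt. Such a run can prime the reverse transcription inside a transcript, and its part in the difference was not tested.

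**Figure D5:**
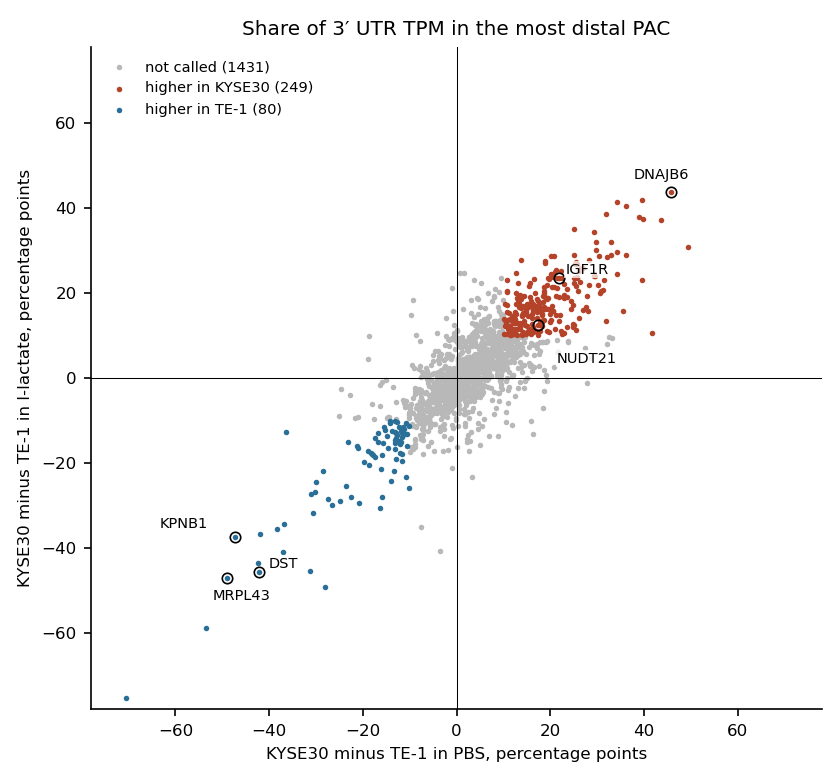
Difference in distal share, KYSE30 minus TE-1, in percentage points, for the 1760 genes, with PBS on the x axis and l-lactate on the y axis; red points (249) were called higher in KYSE30 and blue points (80) higher in TE-1. Points of both colours follow the diagonal, with more red than blue, and 6 genes described in the text are circled.

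Over all 1760 genes, AATAAA or ATTAAA stood within the 50 nt ahead of the distal site in 89.7% and ahead of the main other site in 75.6%, searched on the transcribed strand only. In genes with higher distal usage in KYSE30 the shares were 92.0 and 76.3%, and in genes with higher distal usage in TE-1 they were 85.0 and 73.8%. The intervals of these shares overlap those of all genes. TGTA, the DNA form of the motif that cleavage factor Im binds, was within 100 nt ahead of the main other site in 58.2% of the genes called for KYSE30, in 38.8% of those called for TE-1 (Wilson 95% interval 28.8 to 49.7) and in 56.6% of all (54.3 to 58.9). This motif was looked for after the calls were known, and no test was run on it. Ahead of the distal site it was found in 68.7, 63.8 and 64.9%. A match is a description of the letters, not a bound site.

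Within PACs, the site with the most tags was compared in 8909 PACs with TPM above 5 in all 4 libraries. It was the same position in all 4 libraries in 8058 PACs (90.4%). It lay more than 24 nt further downstream in KYSE30 in both treatments in 46 PACs (0.516%) and in TE-1 in 31 PACs (0.348%), and 6 PACs shifted in opposite directions in the 2 treatments. KYSE30 took 59.7% of the shifts, with a Wilson 95% interval of 48.6 to 70.0 that includes an even split. In 71 of the 77 shifted PACs the dominant site was the same in both treatments of each line, and 72 lay in a 3′ UTR. The median shift was 156 nt and the longest 677 nt.

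Shifted PACs had broad use of sites. The dominant site held a median of 42.1 to 45.5% of the tags of a shifted PAC, against 75.0 to 75.2% over all PACs compared. The deposited tables give the tags of the dominant site alone, so how much of a PAC lay at the dominant site of the other line was not compared. The 77 PACs belonged to 77 genes, of which 16 (20.8%) were called in level, against 32.0% of all genes tested, and 10 of the 28 that had a distal share (35.7%) were called in distal usage, against 18.7% of all.

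Of the 12 PACs named by rank, 8 are shown with the 30 bases up to the dominant site of each line, again from GRCh38 with the poly(A) signal in capitals. They were picked to show each arrangement of the signal found.
RANBP1 KYSE30: agtgAATAAAaaacacatttggaacctggg
RANBP1 TE-1: caagggacgttatataaagaactgaactca
RPSA KYSE30: atacatgtctcgacatgagttgtacttcta
RPSA TE-1: tggaaAATAAAcatcagtttctaaaagttg
CSK KYSE30: cgccgcccgcctcggcgcttcctccaccga
CSK TE-1: aaagaaagtacccagcaaatgggcatttta
TOR1A KYSE30: accgttttacAATAAAattttgcatgtgcc
TOR1A TE-1: ttaacattatgagagactgctcagattcta
DLD KYSE30: aaatgtctataaaccgaactgatgtaagta
DLD TE-1: agatactgaAATAAAcgtcttaaatattca
ACTN1 KYSE30: tattttatgatATTAAAgaaaatcttttga
ACTN1 TE-1: acagatggtATTAAAaaaaccacactccta
BNIP3 KYSE30: taatttagtaaAATAAAagaatagacacta
BNIP3 TE-1: aaaaaaAATAAAtctttgccaaatccttca
CHAF1A KYSE30: tgaatctgccctttAATAAAgcattattga
CHAF1A TE-1: gcagtgtataaacttattctctagccctga
RANBP1, RPSA, CSK and TOR1A ended further downstream in KYSE30, and DLD, ACTN1, BNIP3 and CHAF1A in TE-1. Over the 12 named PACs these bases carried a signal at the downstream site alone in 4 (RANBP1, TOR1A and DLD among them), at the upstream site alone in 2 (RPSA and CHAF1A), at both in 2 (ACTN1 and BNIP3) and at neither in 4, CSK among them. Within 50 nt in place of 30, the downstream site of RPSA carried AATAAA too. Over the 77 shifted PACs a signal stood within 50 nt of the upstream site in 63.6% and of the downstream site in 64.9%.

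RANBP1, a regulator of nuclear transport, had its dominant site at chr22:20127355 in KYSE30 and 173 nt upstream, at chr22:20127182, in TE-1. The dominant site of each line held 42.5 and 45.3% of 3278 and 3143 tags in KYSE30, and 44.1 and 40.0% of 3650 and 4396 tags in TE-1. DLD, the dehydrogenase shared by lipoylated enzyme complexes, had its site at chr7:107919965 in TE-1 and 222 nt upstream in KYSE30, and the dominant site of each line held between 41.3 and 47.0% of the tags in its libraries. In both PACs no site held most of the tags. BNIP3, a mitophagy receptor, had the longest shift, 677 nt, with 48.1 and 48.0% of the tags at chr10:131967686 in TE-1 and 39.3 and 41.1% at chr10:131968363 in KYSE30. The levels of these PACs differed little between the lines, for RANBP1 457 and 423 TPM in KYSE30 and 431 and 423 in TE-1, and for DLD 190 and 176 against 190 and 203.

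The other PACs of this ranking were RPSA, PALM2AKAP2 and MAPK1IP1L, downstream in KYSE30 by 98, 25 and 42 nt, and KDELR2, MRPS18A and CHAF1A, downstream in TE-1 by 68, 147 and 154 nt. RPSA has many processed copies in the genome, and its share of the tags is uncertain. The dominant site of CSK, the kinase that restrains SRC, lay 301 nt apart in the lines, that of TOR1A, an endoplasmic reticulum ATPase, 637 nt and that of ACTN1, actinin of focal adhesions, 194 nt. Over all 77 shifted PACs a signal stood within 50 nt ahead of the KYSE30 site in 67.5% and of the TE-1 site in 61.0%, whereas it did so in 86.7% of the 8058 PACs with the same site in all libraries. The upper Wilson 95% bounds of the first shares were 76.9 and 71.2%, and the lower bound of the last was 85.9%. The difference was not tested.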

How the data were processed

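PAS-seq libraries of KYSE30 and TE-1 cells with l-lactate or PBS were compared. According to the study's methods, the authors aligned reads to GRCh38 with HISAT2, clustered poly(A) sites within 24 nt with CAGEr and joined clusters into PACs; versions are not given in the sources used here, and the build is named as GRCh38.p14 in the submitters' notes. The deposited TPM are RPM values, the tags of a PAC scaled to the total of its library, without length correction. Every listed TPM came out whole within 0.1 tag of a single step per library, which gave the depth. The deposited tables also hold positions of each PAC and of its dominant site. PAC starts, 0-based in the tables, were made 1-based.

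PACs were placed on GENCODE release 44, same strand, first by 3′ UTR, then exon, then gene body. Of 17627 PACs 77.1% lay in a 3′ UTR, and a PAC not listed counted as 0. Gene levels were tested with limma 3.58.1 in R 4.3.3 on log2(TPM + 1), with treatment as a block, over genes with TPM of at least 5 in at least 2 libraries, Benjamini-Hochberg adjusted. Distal usage needed PACs above TPM 5 and 3′ UTR TPM of at least 10 in all libraries, and used log2 of (distal + 1)/(other + 1). Windows of 5 Mb needed 10 genes. The limma fits were tested on simulated data. Wilson intervals cover counting error only.

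The members and gene lists were chosen with earlier results of these data known. Genes named were the 12 largest differences per direction among called genes listed in all 4 libraries with TPM of at least 20 in the higher line, ranked by the smaller difference of the treatments, 8 per direction listed in a single line, up to 3 called members per list and direction with defining markers, 8 per direction for distal usage, 6 per direction for dominant sites, 3 windows per direction, and FDX1, NUDT21, CPSF6, AARS1, HDAC2 and LDHA. Some genes that these rules name are not reported here. Other list members were named after their values were seen. Alternatives changed the pseudocount, filters, scaling, block, thresholds and library set. XIST and Y-linked genes were left out. Tables and figures were made with SciPy 1.17.1, NumPy 2.4.6, pandas 2.3.3 and matplotlib 3.10.9 under Python 3.11.15.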

Additional observations from a re-analysis of the deposited data

How the results depend on the processing

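Gene counts moved most with how low genes were treated. With TPM of at least 10 in all 4 libraries 513 genes were higher in KYSE30 and 513 in TE-1, with genes listed in all 4 libraries alone (chosen after seeing the data) 1085 and 977, and with a difference of at least 2 they were 810 and 737; these settings test or admit fewer genes by construction. Leaving out 1 library in turn gave 1527 to 1811 and 1449 to 1627. TMM scaling, median-ratio scaling, pseudocounts of 0.5 and 5, no filter, placement by the dominant site and no block kept the counts within 1.5 times, and scaling moved the median of all genes by less than 0.1. Without 1 library the difference of 1 or more was asked for only in the treatment that kept both lines, so those counts follow a looser rule. The edgeR and DESeq2 alternatives were not run.

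Genes with higher distal usage in KYSE30 and TE-1 numbered 127 and 46 with PACs above TPM 1, 145 and 51 with PACs above TPM 10, 59 and 23 past 20 percentage points, and 81 to 171 and 37 to 59 without 1 library in turn. Without the block they were 174 and 65. Fisher's exact test on tags gave 233 and 74, but it treats tags as independent and leaves out the spread between libraries. The call of UROS was lost and MRPL43 reversed to 0.0464 (log2 ratio) with PACs above TPM 1. Shifts downstream in KYSE30 were 30 with TPM above 10, 30 past 100 nt, 119 at any length and 86 by the midpoint of the quantile positions, and 99 to 108 without 1 library; in TE-1 they were 80 at any length, 47 by the midpoint and 68 to 74 without 1 library, since only 1 treatment is then asked for a direction. For distal usage, too, the fits without 1 library asked for the 10 points in 1 treatment only. Replicate numbers here name samples only, and the treatment is the block.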
